A study of Mus musculus with 15 samples.

Results

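Ligands, inhibitors and target genes of BMP and Nodal signalling were followed through RNA-seq of mouse embryonic stem cells (ESC) that had lost the chromatin protein Hmga1. The set held 10 genes, taken by their symbols from count tables of 21662 genes: Bmp4, Bmp7, Id1, Id2, Id3, Smad6, Smad7, Nodal, Lefty1 and Lefty2. All 10 were found in both tables and all 10 passed the filter on low counts, with between 27 and 3713 counts per sample. The samples came from 2 experiments. The KO experiment compared WT cells (3 samples, a, b and c) with the Hmga1 KO line (2 samples) and with lines called Hmga1 add-back (2) and Hmga2 add-back (2), which are KO cells that carry a tagged cDNA of Hmga1 or Hmga2 under the CAG promoter at one defined locus. The full-deletion experiment compared a second set of WT samples, called WT 2 (3), with a line from which the coding sequence of Hmga1 had been removed (3), which the labels also name Hmga1 KO. All lines, WT included, descend from parental ESC that express the BirA ligase, were grown in serum with LIF, and each mutant genotype is 1 clone, so that clone and genotype cannot be told apart. Letters mark batches in the KO experiment, in which libraries were made on the same day and shared a flow cell, and c is present for WT alone.

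BMP proteins are secreted ligands that bind paired serine/threonine kinase receptors, which phosphorylate Smad1, Smad5 and Smad9. These enter the nucleus with Smad4 and switch on Id genes, whose products hold bHLH transcription factors inactive, and the inhibitory Smads, Smad6 and Smad7, which feed back on the receptors. Nodal acts through activin receptors, the co-receptor Tdgf1 and Smad2 and Smad3, and induces Lefty1 and Lefty2, secreted proteins that block it. In mouse ESC, BMP supplied by serum is known to sustain Id expression beside LIF, and autocrine Nodal is active.

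The loci are spread over the genome. In the NCBIM37 assembly, the ligand genes lie on chromosome 14 from 47003195 to 47010344 (Bmp4), on chromosome 2 from 172693513 to 172765822 (Bmp7) and on chromosome 10 from 60880720 to 60888086 (Nodal). Among the targets, Id1 spans 152561987 to 152563146 on chromosome 2, Id2 25778666 to 25780957 on chromosome 12, Id3 135699412 to 135701670 on chromosome 4 and Smad6 63800953 to 63869866 on chromosome 9. Lefty2 (182823239 to 182829234) and Lefty1 (182865153 to 182868531) are neighbours on chromosome 1, 35919 bases apart. Their transcripts are alike, and 19.0% of the 47-base stretches of Lefty1 and 12.3% of those of Lefty2 occurred in the other, so that reads of those stretches were divided between the pair at random. The share was at most 0.348% (Bmp4) for each of the other 8 genes. Only protein-coding transcripts were searched, so copies elsewhere in the genome, to which the reads were aligned, were not counted.

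Promoter sequence, the 250 bases before the start of transcription on the strand of the gene, was held for 5 of the 10 genes (RefSeq, GRCm38.p6). The promoters of Bmp4, Id2 and Smad6 are printed, because the levels of Bmp4 and Smad6 moved with the full deletion and Id2 was the target with the smallest adjusted p in the KO experiment. Capitals mark the GC-rich motifs GGCGCC and GGAGCC, which BMP-activated Smads are known to bind, on either strand. They cover chr14:46390670-46390919, chr12:25096093-25096342 and chr9:64022060-64022309, each on the minus strand.
Bmp4: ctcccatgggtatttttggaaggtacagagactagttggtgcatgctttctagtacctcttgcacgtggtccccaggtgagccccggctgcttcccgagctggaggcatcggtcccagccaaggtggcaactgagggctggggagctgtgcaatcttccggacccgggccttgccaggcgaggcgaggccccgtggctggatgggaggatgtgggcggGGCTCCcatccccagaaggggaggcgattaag
Id2: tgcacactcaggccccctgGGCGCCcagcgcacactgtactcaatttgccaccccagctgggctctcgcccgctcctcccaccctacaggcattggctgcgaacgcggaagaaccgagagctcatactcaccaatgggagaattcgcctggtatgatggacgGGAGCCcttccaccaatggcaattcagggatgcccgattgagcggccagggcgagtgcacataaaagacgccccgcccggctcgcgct
Smad6: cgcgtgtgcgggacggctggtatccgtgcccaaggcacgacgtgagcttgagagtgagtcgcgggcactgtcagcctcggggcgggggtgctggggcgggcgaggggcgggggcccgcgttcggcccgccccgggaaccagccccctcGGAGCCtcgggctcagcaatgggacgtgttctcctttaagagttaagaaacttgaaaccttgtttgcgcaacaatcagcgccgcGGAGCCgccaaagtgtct
GGCGCC was found in the Id2 window, beginning at position -231, and in 9.59% of all 32851 promoter windows of the same length. GGAGCC, on either strand, was found in the window of each of the 5 genes, with 2 matches for Smad6, at -102 and -18, and in 26.0% of all windows. The shorter Smad motif CAGAC was found in the Id3 window at -167 and -68 and in 42.2% of all windows, and AATNNACA, the form bound by the Nodal partner Foxh1, in none of the 5 and in 10.9% of all windows. None of the 4 motifs overlaps another in these windows, and a match marks letters, not a bound site.

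Levels are given as CPM, counts scaled to TMM-normalized library sizes, for comparison of 1 gene between samples, and as RPKM, CPM per kilobase of the deposited exon width, for comparison between genes. In WT, Id1 was the highest per length (56.8 ± 22.0 RPKM, SD, n = 3), ahead of Bmp4 (28.3 ± 9.64). Id3 (18.9 ± 6.53), Id2 (18.5 ± 1.66), Smad7 (17.5 ± 4.63), Lefty2 (16.0 ± 8.24) and Nodal (13.6 ± 1.06) followed within the spread of their neighbours. Lefty1 (7.40 ± 5.62) had a spread that reached both sides, and Smad6 (2.12 ± 0.467) and Bmp7 (1.20 ± 0.360) were lowest. By group mean, Lefty2 was highest per length in the other 5 groups, from 25.3 ± 4.84 RPKM in the KO (SD, n = 2) to 62.2 ± 1.98 in the full deletion (SD, n = 3), and Bmp7 and Smad6 held the lowest places in each group. Single samples departed from that order, as Id3 was above Lefty2 in KO a and Bmp4 and Smad7 were above it in the b sample of each KO-derived line. The WT of the 2 experiments differed in this order, and each mutant line was compared only with the WT of its own experiment.

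**Figure D1:**
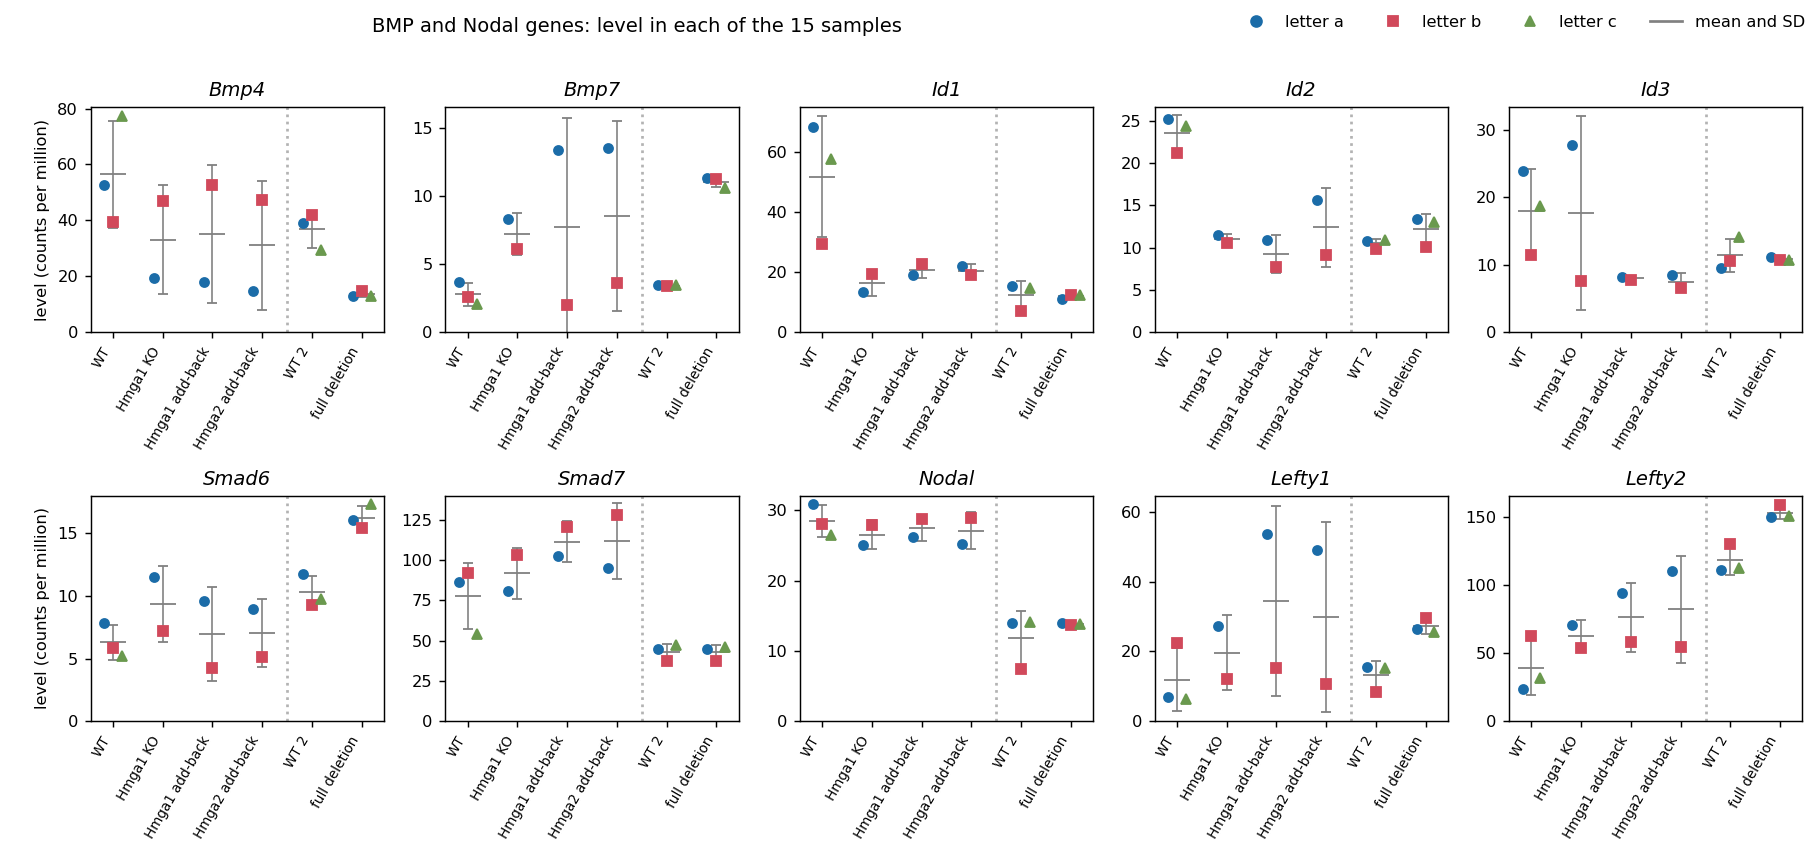
Level of each gene, in CPM on a linear axis from 0, in each of the 15 samples, with symbols for the sample letter and bars for the mean and SD of a group. The 3 full-deletion samples lie close together for Bmp4, Bmp7 and Lefty1, away from WT 2, while in the KO experiment the a samples of the 3 KO-derived lines lie apart from their b samples.

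Summed counts per sample lay between 13470000 and 34950000 (rounded) for the KO experiment, with batch b the shallower, and between 14830000 and 21710000 for the other. Hmga1 itself fell to 11.8 ± 0.766 CPM in the full deletion (SD, n = 3) from 340.5 ± 26.1 in WT 2 (SD, n = 3), whereas in the KO it had 156.5 ± 85.4 (SD, n = 2) against 320.2 ± 128 in WT (SD, n = 3). A frameshift need not remove the transcript, so its RNA is no full check of that label, and Hmga1 RNA was not above the KO in the Hmga1 add-back (153.3 ± 43.4, SD, n = 2). In the paper's Western blots, Hmga1 protein was not detected in the KO and was back at about the WT level in the Hmga1 add-back. Hmga2 was at 235.5 ± 19.2 CPM in the Hmga2 add-back and at 16.4 ± 3.61 in the KO (SD, n = 2 each). The library labelled WT 2 b stood apart from WT 2 a and c, with 8.78% of its counts in its 10 highest genes against 4.67 to 5.38% in the other 5 libraries of that experiment. Of 8 ESC markers, all were present in all samples. Their summed level was 4489 to 5098 CPM in WT and 5116 to 5596 in the KO-derived samples. It was 3818 to 6198 in WT 2, where a and c had 3926 and 3818 and WT 2 b had 6198. In the full deletion it was 3567 to 3607. Neither mutant set overlapped with its WT, but the nearest samples of the KO experiment were almost level, at 5098 (WT b) and 5116 CPM (KO b).

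The question in the full deletion was whether these genes stayed at WT levels when the coding sequence of Hmga1 was removed. Of the ligands, Bmp4 fell 2.70-fold and Bmp7 rose 3.22-fold, and the targets divided. The Id genes and Smad7 gave no call, and Smad6 and Lefty1 rose. Of the 10 genes, 4 passed an adjusted p of 0.05 in edgeR's quasi-likelihood test, 3 higher and 1 lower, where 8.25% of all 13098 genes tested passed. With an adjusted p of 0.01 and a fold change of at least 2, only Bmp7 passed, where 0.0687% of all genes did. The median log2 change was 0.21 over the 10 genes and 0.04 over all genes tested. Levels did not overlap between the groups for 5 of the 10 genes, close to the 51.3% of all genes for which this held.

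Bmp4, a ligand that ESC and extraembryonic ectoderm produce, had 39.2, 41.9 and 29.4 CPM in WT 2 a, b and c. It had 13.1, 14.9 and 12.9 CPM in the full-deletion samples. Every full-deletion sample was below every WT 2 sample, and the log2 change was -1.43 (95% interval -1.80 to -1.07, adjusted p = 0.0137 in edgeR's quasi-likelihood test, as for all adjusted p of this kind). Bmp7, a second BMP ligand that can pair with Bmp4 in heterodimers, had 3.46, 3.37 and 3.47 CPM in WT 2. In the full deletion it had 11.4, 11.3 and 10.6 CPM. The groups were far apart beside their spread, and the log2 change was 1.69 (1.38 to 1.99, adjusted p = 0.00748). Per length, Bmp4 stood at 18.5 ± 3.31 RPKM and Bmp7 at 1.48 ± 0.0240 in WT 2, and at 6.83 ± 0.544 and 4.79 ± 0.184 in the full deletion (SD, n = 3 each). Bmp4 transcripts therefore remained more abundant than those of Bmp7.

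Nodal, the third ligand, had 13.9, 7.41 and 14.2 CPM in WT 2 and 13.97, 13.7 and 13.8 in the full deletion. Only WT 2 b was low, and the log2 change of 0.22 (-0.33 to 0.77, adjusted p = 0.512) was not distinguishable from 0. Among the genes that report on Nodal and restrain it, Lefty1 had 15.6, 8.40 and 15.3 CPM in WT 2 and 26.4, 29.6 and 25.5 in the full deletion. The groups did not overlap and Lefty1 rose by 1.05 on the log2 scale (0.52 to 1.58, adjusted p = 0.0400). Lefty2 had 111.3, 130.4 and 112.3 CPM in WT 2 and 150.0, 158.6 and 150.4 in the full deletion. Its groups did not overlap either, but the log2 change of 0.38 (0.13 to 0.62) missed the threshold, with an adjusted p of 0.0601.

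The Id genes are the classical direct targets of BMP in ESC. Id1 had 15.4, 7.23 and 14.8 CPM in WT 2 and 11.2, 12.3 and 12.3 in the full deletion, a log2 change of -0.08 (-0.70 to 0.55, adjusted p = 0.847). WT 2 b lay below all full-deletion samples and the other 2 above them. Without WT 2 b the log2 change of Id1 was -0.34 with an adjusted p of 0.0141. In that fit 42.5% of all genes passed the threshold on adjusted p, so such a call is not particular to Id1. Id2 had 10.8, 9.87 and 10.8 CPM in WT 2 and 13.4, 10.1 and 13.04 in the full deletion (log2 change 0.21, -0.14 to 0.55, adjusted p = 0.322). Id3 had 9.54, 10.5 and 14.1 CPM in WT 2 and 11.2, 10.8 and 10.7 in the full deletion (log2 change -0.07, -0.46 to 0.32, adjusted p = 0.781). For these 3 targets the groups overlapped, and the intervals allow changes of up to 0.70 in size on the log2 scale.

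The inhibitory Smads differed from each other in level and in response. Smad6, which is held to act mainly on BMP receptors, had 11.8, 9.31 and 9.78 CPM in WT 2 and 16.0, 15.4 and 17.3 in the full deletion. It rose by 0.66 on the log2 scale (0.34 to 0.97, adjusted p = 0.0363), with no overlap of the groups. Smad7, which also acts on activin and Nodal receptors, had 44.9, 37.6 and 47.1 CPM in WT 2 and 44.7, 37.5 and 46.1 in the full deletion (log2 change -0.02, -0.32 to 0.29, adjusted p = 0.939).

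WT 2 b weighed on these calls. Without it, Bmp4 and Bmp7 passed the stricter rule, where 2.75% of all genes did, and 6 of the 10 genes passed an adjusted p of 0.05, where 42.5% of all genes did. Without any 1 of the 3 full-deletion samples 0 of the 10 passed at 0.05, and without WT 2 c only Bmp4 did, with at most 4 of all genes passing in each of these fits. The changes themselves stayed close in size when 1 sample was left out, at -1.33 to -1.58 on the log2 scale for Bmp4, 1.66 to 1.71 for Bmp7, 0.59 to 0.76 for Smad6 and 0.82 to 1.18 for Lefty1. Markers of other cells were measured in the same libraries. The summed level of 8 trophoblast markers was 125.7 to 132.5 CPM in WT 2 and 154.2 to 165.6 in the full deletion. Tfap2c, which ESC also express, supplied 95.3 to 96.6% of it, and the other 7 summed to 4.70 to 6.20 CPM in WT 2 and 5.30 to 6.70 in the full deletion, where Plac1 was at 0 in all 6 libraries and Cdx2 and Elf5 had at most 4 and 3 counts. The 11 feeder fibroblast markers found summed to 4.47 to 9.30 CPM in WT 2 and 9.59 to 10.7 in the full deletion, and 5 of them (Col3a1, Dcn, Postn, Twist2 and Fap) were at 0 in all 6. Primitive endoderm markers, 8 genes, summed to 10.7 to 11.95 CPM in WT 2 and 14.4 to 14.6 CPM in the full deletion. Formative epiblast markers, 6 genes, summed to 307.7 to 351.1 CPM in WT 2 and 231.9 to 248.7 in the full deletion, and 6 mesendoderm markers to 0.980 to 1.73 and 1.39 to 1.68 CPM. The part of such cells or cell states in the changes of Bmp4, Bmp7, Smad6 and Lefty1 was not tested, and in bulk RNA fewer cells of a type and less RNA per cell cannot be told apart.

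**Figure D2:**
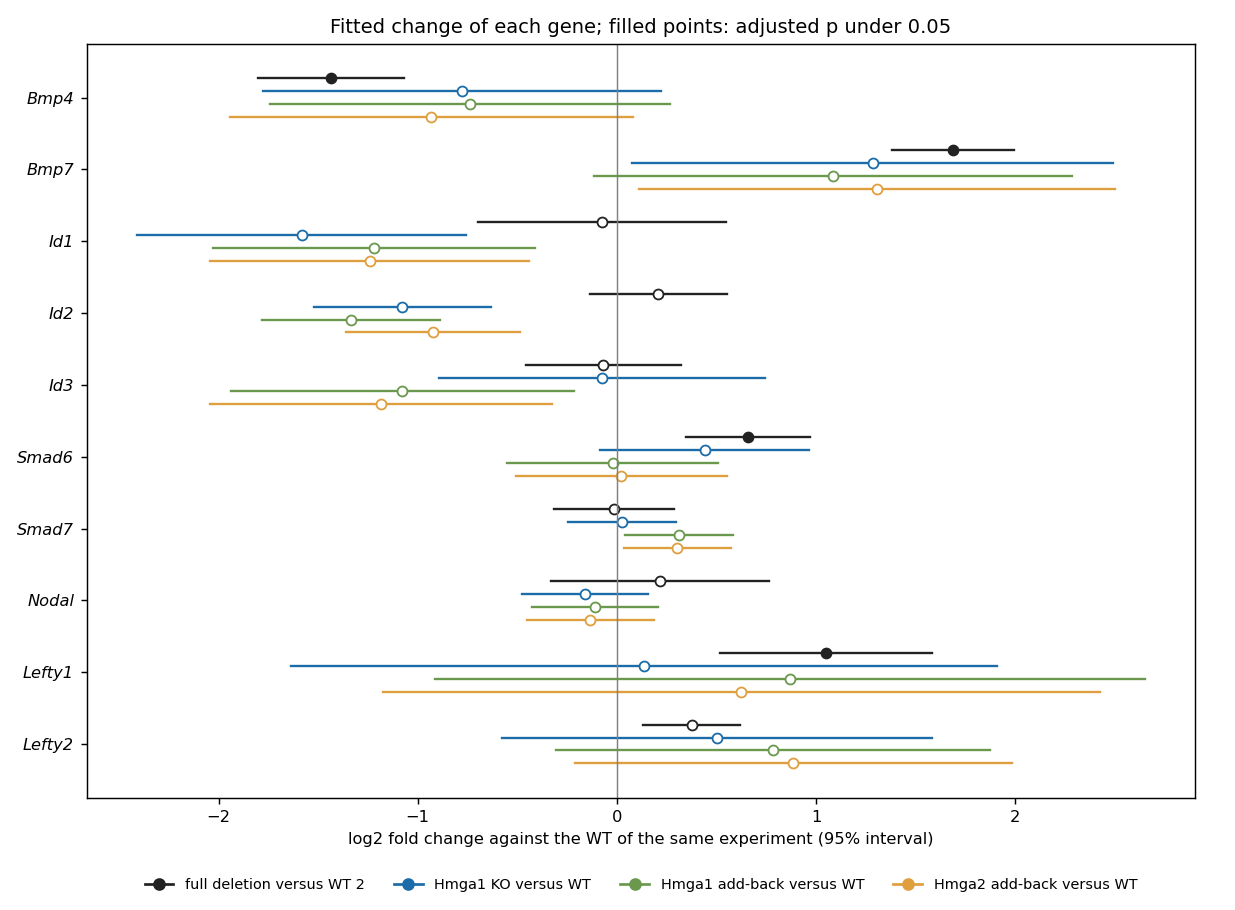
Fitted log2 fold change of each gene against the WT of the same experiment (x axis) with its 95% interval, for the full deletion and the 3 KO-derived lines. Filled points, Bmp4, Bmp7, Smad6 and Lefty1 of the full deletion, passed an adjusted p of 0.05. The intervals of the KO are wider than those of the full deletion for each gene except Nodal and Smad7.

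In the KO experiment none of the 10 genes passed either threshold in any of the 3 comparisons with WT, by the same edgeR test, here with a batch term. WT c, alone in its batch, is taken up by that term, so the fitted changes against WT rest on WT a and b. The shares of all 13912 genes that passed were 0.0216% (stricter rule) and 0.0647% (adjusted p of 0.05) in the KO, 0.0144% and 0.0431% in the Hmga1 add-back, and 0.0647% and 0.165% in the Hmga2 add-back. At an unadjusted p under 0.05, 3 of the 10 genes passed in KO cells, 4 with Hmga1 added back and 5 with Hmga2 added back, where 12.6%, 13.3% and 16.9% of all genes did. The Wald test of DESeq2 called Id2 by the stricter rule for the KO and for the Hmga1 add-back, and none for the Hmga2 add-back, where it called 0.546%, 0.546% and 0.769% of all genes. These comparisons share their WT samples. In the KO, Id1 and Id2 had the lowest fitted changes of the set and Bmp7 the highest. For 5 genes the batches pointed in opposite directions, a share that was not computed over all genes.

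Id2 gave the smallest adjusted p of the set. It had 25.2, 21.2 and 24.3 CPM in the WT samples a, b and c. It had 11.4 and 10.6 CPM in KO a and b, 10.9 and 7.65 in the Hmga1 add-back and 15.7 and 9.08 in the Hmga2 add-back. All 6 KO-derived samples lay below all 3 WT samples, at 62.2% of the WT of their batch at most (Hmga2 add-back a) and at 36.1% at least (Hmga1 add-back b). The log2 change was -1.08 in the KO (-1.52 to -0.63, adjusted p = 0.0842), -1.33 in the Hmga1 add-back (-1.78 to -0.89, adjusted p = 0.0809) and -0.92 in the Hmga2 add-back (-1.36 to -0.49, adjusted p = 0.106). In none of the 3 lines did Id2 thus pass the test over all genes.

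Id1 had 68.3, 29.4 and 57.5 CPM in WT a, b and c. It had 13.2 and 19.2 CPM in KO a and b, 19.0 and 22.6 in the Hmga1 add-back and 22.0 and 18.9 in the Hmga2 add-back. Again all 6 KO-derived samples were below all 3 WT samples, with a larger gap in batch a, where the KO was at 19.4% of WT, than in batch b, where it was at 65.4%. The log2 change in the KO was -1.58 (-2.41 to -0.76, adjusted p = 0.161). Id1 and Id2 were the 2 of 10 genes for which the KO-derived samples and WT did not overlap, against 8.85% of all genes tested. Id3 did not share this. It had 23.9, 11.5 and 18.6 CPM in WT, 27.8 and 7.53 in KO a and b, 8.21 and 7.72 in the Hmga1 add-back and 8.44 and 6.55 in the Hmga2 add-back. KO a lay above all WT samples, whereas the 4 add-back samples lay below all 3, and the log2 changes were -0.07 in the KO (adjusted p = 0.953), -1.08 in the Hmga1 add-back (adjusted p = 0.313) and -1.18 in the Hmga2 add-back (adjusted p = 0.202).

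The summed level of the 8 primitive endoderm markers was below the WT of the batch in 5 of 6 KO-derived samples, and above it in Hmga1 add-back b, where Id1 and Id2 were below WT b. It was 119.8, 41.2 and 81.6 CPM in WT a, b and c, and from 10.97 to 28.8 in the KO-derived samples of batch a and from 22.5 to 70.6 in those of batch b, with none of the markers at 0 in a sample. Whether these cells have a part in the lower Id1 and Id2 was not tested.

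Bmp4 and the Lefty genes depended on the batch. Bmp4 had 52.8, 39.3 and 77.2 CPM in WT a, b and c. In the KO it had 19.3 CPM in a and 46.8 in b, in the Hmga1 add-back 17.8 and 52.5, and in the Hmga2 add-back 14.8 and 47.5. The a samples of the 3 lines were thus below all WT samples, at 36.5%, 33.7% and 27.9% of WT a, and the b samples above WT b, at 119.3%, 133.7% and 120.9% of it. Fitted over both batches, the log2 change of Bmp4 was -0.78 in KO cells (adjusted p = 0.5001), -0.74 with Hmga1 added back (0.486) and -0.93 with Hmga2 added back (0.322).

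Lefty1 ran the other way. It had 7.05, 22.3 and 6.27 CPM in WT a, b and c, 27.2 and 12.1 in KO a and b, 53.7 and 15.2 in the Hmga1 add-back and 49.1 and 10.6 in the Hmga2 add-back. Against the WT of the batch this was 385.5%, 761.9% and 696.7% in batch a and 54.3%, 68.0% and 47.4% in batch b. WT b was itself higher than WT a and c. Lefty2 had 23.9, 62.3 and 31.8 CPM in WT, 70.7 and 53.9 in KO a and b, 94.3 and 58.0 in the Hmga1 add-back and 110.0 and 54.5 in the Hmga2 add-back. It too was above WT in batch a, at 295.9%, 394.2% and 460.0%, and near or below it in batch b, at 86.5%, 93.2% and 87.5%. The fitted changes of Lefty1 (0.14 on the log2 scale in KO cells, 0.87 with Hmga1 and 0.62 with Hmga2 added back) and of Lefty2 (0.50, 0.78 and 0.89 in that order) had adjusted p between 0.361 and 0.960.

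Bmp7 had 3.70, 2.56 and 2.08 CPM in WT a, b and c. It had 8.33 and 6.16 CPM in KO a and b, above all WT samples, at 225.2% and 240.5% of the WT of the batch. The log2 change was 1.28 (0.08 to 2.49) with an adjusted p of 0.376. In the add-backs Bmp7 was above all WT samples in batch a only, with 13.4 and 2.02 CPM in the Hmga1 add-back and 13.5 and 3.59 in the Hmga2 add-back. Nodal was the steadiest gene of the set, with 30.9, 28.0 and 26.6 CPM in WT and from 25.1 to 28.9 CPM in the 6 KO-derived samples. Its intervals against WT reached from -0.48 to 0.21 on the log2 scale over the 3 lines. Smad7 had 86.5, 92.2 and 54.0 CPM in WT and 80.6 to 128.4 in the KO-derived samples, and Smad6 had 7.84, 5.82 and 5.19 CPM in WT and 4.27 to 11.5, so that both overlapped with WT.

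**Figure D3:**
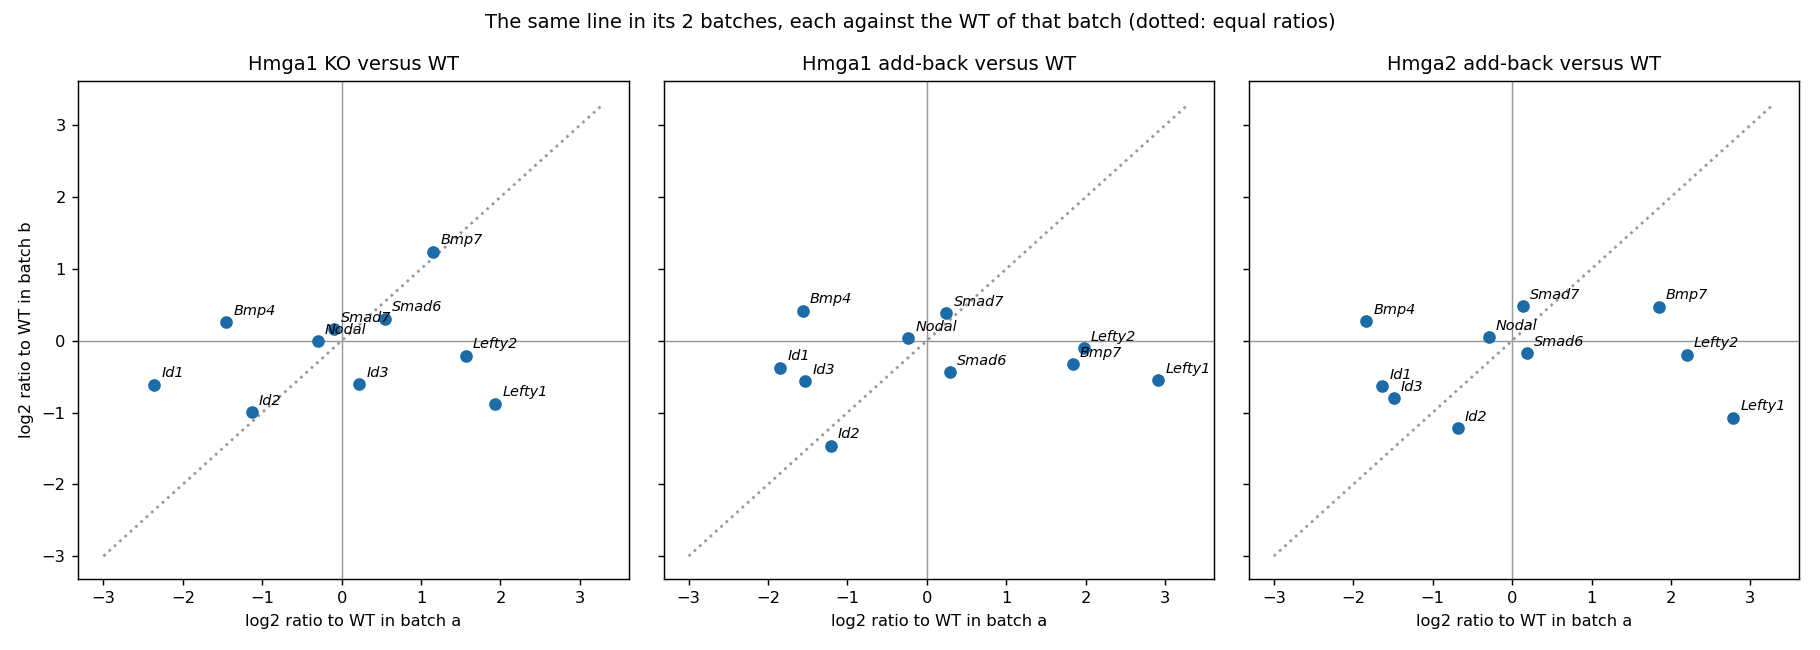
Log2 ratio of each gene to the WT of the same batch, in batch a (x axis) and in batch b (y axis), 1 panel for each KO-derived line, with a dotted line where both ratios are equal. Id1 and Id2 are below 0 on both axes in each panel, while Bmp4, Lefty1 and Lefty2 lie on opposite sides of 0.

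Within the KO, 5 of the 10 genes had the same sign in batch a and in batch b, and 5 the opposite sign. Each ratio sets a single library against a single library. Neither the share of all genes with opposite signs nor their median ratio was computed, so these counts have no background. The median size of the log2 ratio was 1.14 in batch a and 0.46 in batch b. For the Hmga1 add-back 4 genes had the same sign, with medians of 1.55 and 0.40, and for the Hmga2 add-back 5, with medians of 1.56 and 0.48. The calls and directions turned on WT a and WT b. Without WT a the log2 change of Bmp4 in the KO was 0.38 (adjusted p = 0.860) and that of Lefty1 -1.19 (adjusted p = 0.456). Without WT b the comparison with WT rested on batch a, and Bmp4, Id1 and Lefty2 passed the stricter rule in the KO, with log2 changes of -1.56, -2.20 and 1.72. In each add-back the same 3 genes and Lefty1 then passed. Of all genes, 0.443%, 0.264% and 0.749% passed in the 3 comparisons without WT b. The sum of the trophoblast markers, of which Tfap2c supplied 86.2 to 95.4%, moved with the batch as well, at 128.0 to 176.4 CPM in the KO-derived samples of batch a and 52.6 to 67.6 in those of batch b, with 57.0, 75.9 and 59.4 in WT a, b and c. The other 7 summed to 4.97 to 10.1 CPM. The part of such cells in the pattern of Bmp4 and Lefty1 was not tested.

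The add-backs were compared with the KO to ask whether Hmga1 or Hmga2 cDNA moved these genes. None of the 10 passed in either add-back against the KO or between the add-backs, with backgrounds of 0% by both rules for Hmga1, 0.00719% and 0.0144% for Hmga2, and 0.00719% and 0.0144% between them. At an unadjusted p under 0.05 by edgeR, 2 of 10 passed in each add-back against the KO, Id3 and Smad7, where 2.80% and 5.09% of all genes did, and 0 between the add-backs, where 1.27% did. For Id3 this rested on KO a, without which the log2 difference was -0.20 for the Hmga1 and -0.28 for the Hmga2 add-back. DESeq2 called 0 of 10 by the stricter rule in each. Id2, which was low in the KO, did not stand nearer to WT in the Hmga1 add-back, with a log2 difference of -0.26 to the KO (adjusted p = 0.9999), and the Hmga2 add-back differed from it by 0.15 (adjusted p = 0.899).

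In both experiments the samples lowest in Bmp4 were those highest in Bmp7. The 3 full-deletion samples and the a samples of the KO and the add-backs had between 12.9 and 19.3 CPM of Bmp4 and between 8.33 and 13.5 CPM of Bmp7. The other 9 samples had between 29.4 and 77.2 CPM of Bmp4 and between 2.02 and 6.16 CPM of Bmp7. The samples were divided here by their Bmp4 level and lay in these clusters, so no correlation is given over all of them. The experiments were scaled separately, and the share of all genes that divide these samples alike was not computed. Between the full deletion and WT 2 alone, 51.3% of all genes tested did not overlap, so such a division is not particular to these genes there. Lefty1 was between 25.5 and 53.7 CPM in the first set and between 6.27 and 22.3 CPM in the second. The KO of batch b joined the WT samples in Bmp4 and Lefty1 and lay between the clusters in Bmp7.

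**Figure D4:**
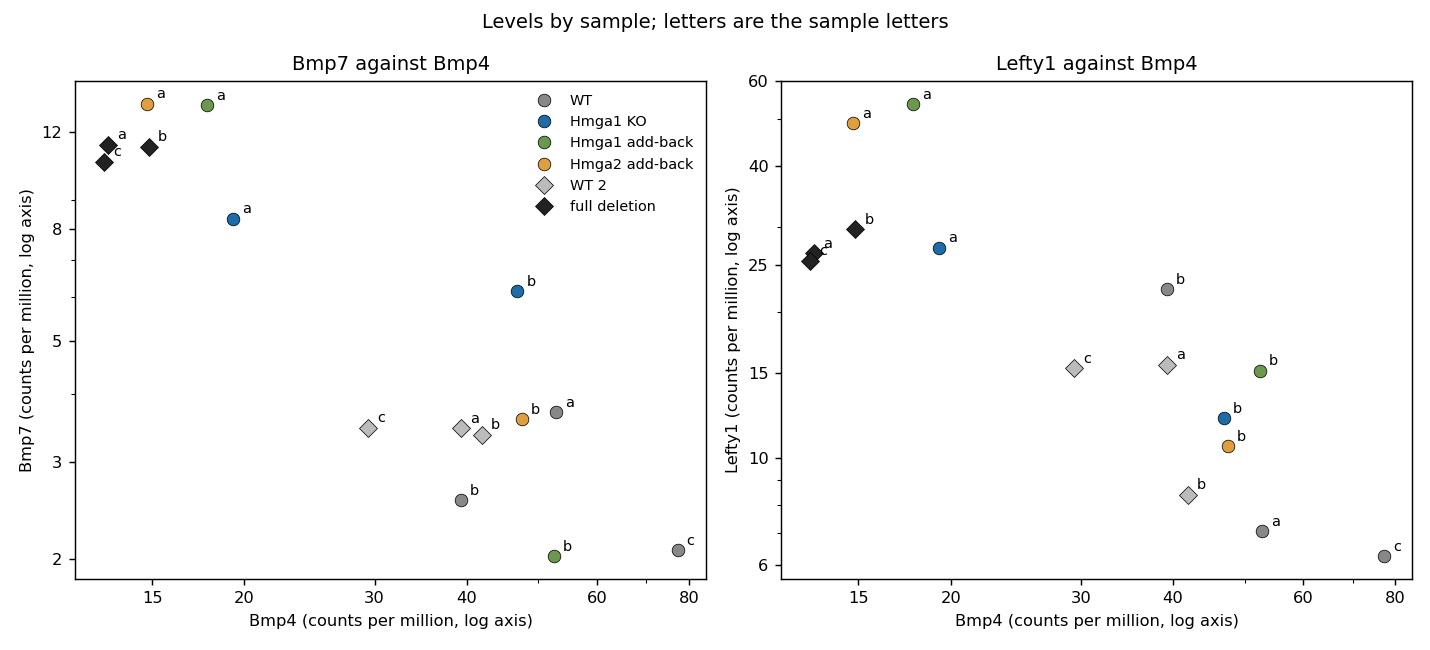
Bmp7 (left) and Lefty1 (right) against Bmp4 in the 15 samples, all in CPM on log axes, with colours for groups, diamonds for the full-deletion experiment and the sample letter beside each point. Samples low in Bmp4, the full deletion and the a samples of the KO-derived lines, are high in Bmp7 and Lefty1.

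The size of the response in the full deletion was compared with that in the KO in a joint model of both experiments. None of the 10 genes differed by either rule, where 0.0843% (stricter) and 0.375% (adjusted p of 0.05) of 13050 genes did, and 2 of 10, Id1 and Id2, had an unadjusted p under 0.05 in edgeR, as did 18.7% of all genes. DESeq2 called Id2 alone by the stricter rule, and 0.835% of all genes. The difference was 1.27 on the log2 scale for Id2 (0.74 to 1.81, adjusted p = 0.0546), whose own log2 changes were -1.08 in the KO (adjusted p = 0.0842) and 0.21 in the full deletion (adjusted p = 0.322). For Id1 it was 1.49 (0.42 to 2.57, adjusted p = 0.215). For Bmp4 (-0.67, -1.76 to 0.43), Bmp7 (0.39, -0.80 to 1.58) and Lefty1 (0.92, -0.92 to 2.77) the intervals reached from no difference to more than a 2-fold one. The experiments differ in their WT samples and WT level as well as in the allele, and these cannot be told apart.

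The rest of the pathway was examined through 73 further genes in 5 lists, of which the tables held 72, and 56 (KO experiment) and 53 (full deletion) passed the count filter. In the full deletion 2 of the 53 genes passed an adjusted p of 0.05, both lower, where 8.25% of all genes did, and 0 the stricter rule. The median log2 change over the 53 was 0.20, beside 0.04 over all genes tested. Zfp423, a zinc finger partner of BMP Smads, had 139.6, 137.7 and 136.2 CPM in WT 2 and 77.3, 76.3 and 81.2 in the full deletion. The groups were tight and apart, and Zfp423 fell by 0.82 on the log2 scale (adjusted p = 0.0137). Inhbb, which encodes an activin subunit that signals through the receptors Nodal uses, had 191.3, 293.1 and 220.5 CPM in WT 2 and 117.0, 128.7 and 124.2 in the full deletion. It fell by 0.93 on the log2 scale (adjusted p = 0.0294). Neither Zfp423 nor Inhbb was refitted with other tools, scalings or samples. Without any 1 of the full-deletion samples, only 3 of all genes tested passed an adjusted p of 0.05 in edgeR.

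Of the lists, the other ligands and their processing enzymes had 1 of 6 tested genes lower (Inhbb) and a median log2 change of 0.28 in the full deletion. The Smads and their nuclear partners had 1 of 16 lower (Zfp423) and a median of 0.14. None of 14 receptors and co-receptors, none of 7 inhibitors and none of 10 other targets passed, with medians of 0.12, 0.30 and 0.10, and 2, 4 and 4 of them had an unadjusted p under 0.05 in edgeR, as did 37.0% of all genes. By level per length, Tdgf1, the Nodal co-receptor, was the highest of the receptors, at 510.2 RPKM in WT, and its log2 change in the full deletion was -0.37 (adjusted p = 0.246). Bmpr1a, a type I receptor of BMP (22.5 RPKM in WT), had a log2 change of 0.04 (adjusted p = 0.796). The nuclear repressors Tgif1 (65.9 RPKM) and Skil (45.2 RPKM) had log2 changes of 0.09 (adjusted p = 0.515) and -0.36 (adjusted p = 0.0680). None of these 4 thus passed.

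The ligand Gdf3 (35.5 RPKM in WT) had a log2 change of 0.60 in the full deletion (adjusted p = 0.134), and the inhibitor Twsg1 (8.16 RPKM) one of 0.30 (adjusted p = 0.0865). The targets Dusp9 (43.0 RPKM) and Tbx3 (16.3 RPKM) had log2 changes of 0.12 (adjusted p = 0.440) and 0.08 (adjusted p = 0.601). Against WT of the KO experiment 0 of the 56 genes passed either rule in edgeR for any KO-derived line, with 11 (KO), 8 (Hmga1 add-back) and 12 (Hmga2 add-back) at an unadjusted p under 0.05, beside 12.6%, 13.3% and 16.9% of all genes. The medians over the 56 were -0.12, -0.03 and -0.04 on the log2 scale. In the joint model 1 of 53 genes passed an adjusted p of 0.05, the follistatin-like inhibitor Fstl1, where 0.375% of all genes did. It had 106.6, 60.05 and 126.5 CPM in the WT samples a, b and c, against 38.9 and 42.6 for the KO pair, and 30.9, 30.8 and 34.0 in WT 2 and 38.7, 45.3 and 42.0 in the full deletion. The log2 change of Fstl1 was -0.98 in the KO (adjusted p = 0.140) and 0.40 in the full deletion (adjusted p = 0.0547), neither past the threshold, and the difference between the log2 changes was 1.36 (adjusted p = 0.0463).

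**Figure D5:**
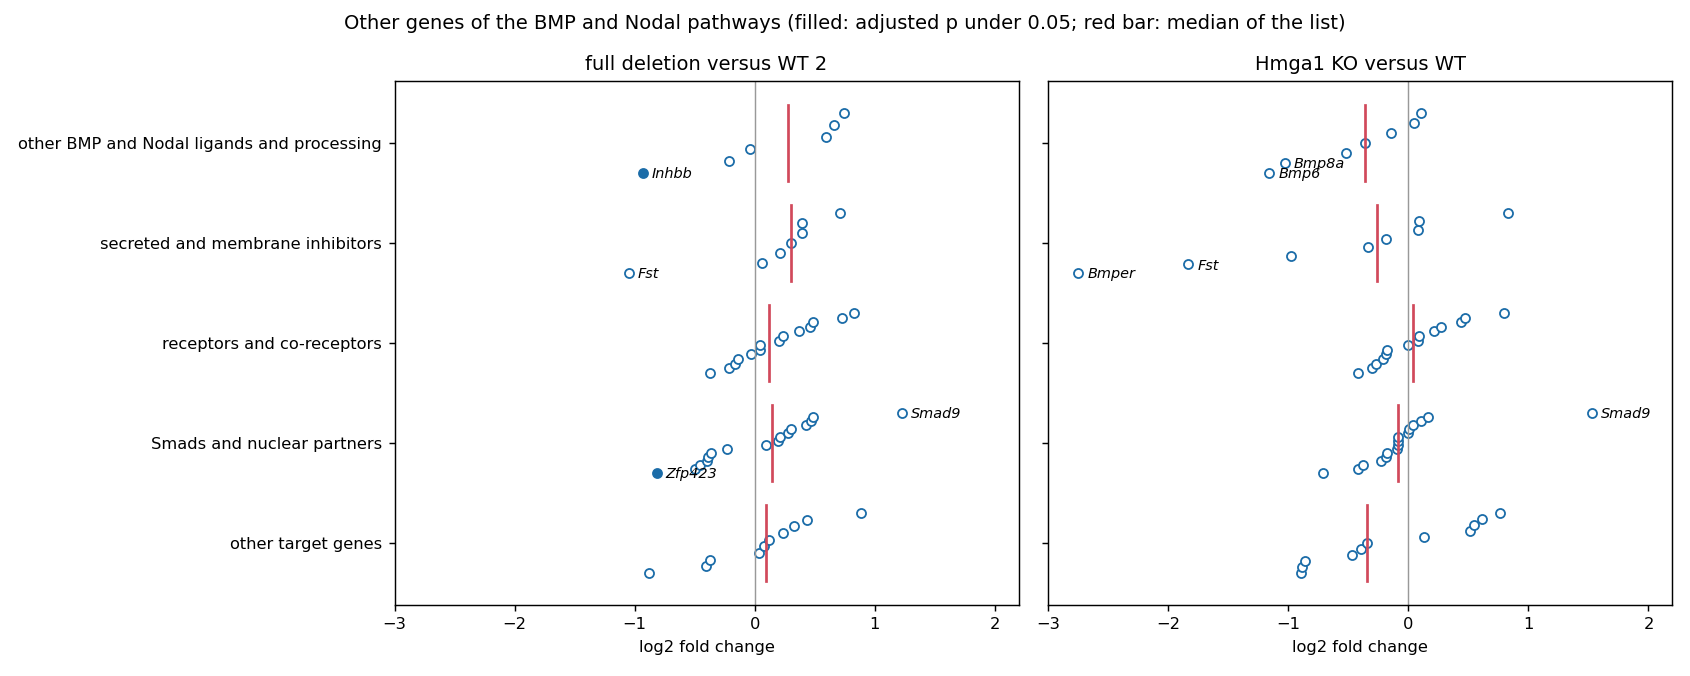
Fitted log2 fold change (x axis) of the further pathway genes in their 5 lists, in the full deletion (left) and in the KO (right), with a red bar at the median of each list. Zfp423 and Inhbb in the full deletion are the filled points, which passed an adjusted p of 0.05, and no gene of the KO panel is filled.

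The genes whose pattern was most like that of each member were found by Pearson's r of log2 CPM, centred within each experiment, over 15 samples that share batches and lines, among 9681 genes. These values describe likeness and say nothing of shared control. Closest to Bmp7 were Arfgap3 (r = 0.975) and Man2a2 (0.972), and closest to Bmp4 were Soga3 (0.967), Tm9sf2 (0.964) and D16Ertd472e (0.958). Nodal was most like Arel1 (0.964), Smim7 (0.949) and Tmem167b (0.947). For the targets, Id1 was most like Cdc42se1 (0.954), Bcam (0.920) and Pea15a (0.917), and Id3 most like Ap2m1 (0.912), Smyd2 (0.905) and Wdr34 (0.870). Id2 had no such close match, with Galnt7 (0.867), P3h4 (0.859) and Kdelc1 (0.848). Smad6 was most like Mta1 (0.962), Hdac6 (0.960) and Pink1 (0.955) and Smad7 most like Nf1 (0.855), Zfp870 (0.854) and Plekha8 (0.851). Lefty1 was most like Clmn (0.949), Mycl (0.947) and Slc15a2 (0.940), and Lefty2 most like Heca (0.927), Abcg1 (0.922) and Ldb3 (0.917). No member was among the 3 genes most like another member.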

How the data were processed

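RNA-seq of 15 ESC samples was analysed. Per the labels and the study's methods, total RNA depleted of ribosomal RNA was made into stranded libraries and read as single 50-base reads. The authors used bcl2fastq 2.17, trimmed 3 bases, aligned with bowtie to mm9, placed multi-mapping reads at 1 random position and deposited raw counts of same-strand reads per UCSC known gene. RNA came from at least 2 cultures of a line harvested on different days. The p-values therefore measure spread between libraries of 1 clone, not between clones. In the KO and joint fits this is the spread left after the batch term, pooled over the lines.

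The filter on low counts, a mean of 10 or more, kept 13912, 13098 and 13050 genes in the KO, full-deletion and joint fits. Scaling was by TMM and testing by edgeR 4.0.16 (R 4.3.3) quasi-likelihood, with Benjamini-Hochberg adjustment over all genes. The study used limma-trend, which is an alternative here (limma 3.58.1), as is DESeq2 1.42.0. The batch letter was a term in the KO experiment, since the study states that letters are batches, and samples of a letter deviated together (r = 0.319 to 0.758). In the full-deletion experiment the letters did not pair (-0.0546 to 0.0703). Each of the 10 genes had at least 27 counts in every sample, and counting error can exceed the spread between samples, as for Bmp7 in WT 2.

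The 10 genes and the pathway and marker lists were chosen with earlier results of these data known. Named beyond the 10 are the pathway genes past a threshold, the 2 of each list highest in WT, the 3 genes most like each member (mean count of at least 100) and Hmga1 and Hmga2. Part of the likeness result is not reported here. The fits were also run on simulated counts that held no batch effect. Such counts cannot show how the fits handle the differences between batches a and b, and no conclusion is drawn from them. Figures were drawn with matplotlib 3.10.9.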

Additional observations from a re-analysis of the deposited data

Results flagged for a closer look

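Fstl1, the follistatin-like inhibitor among the further pathway genes, is set apart by the interaction term of the joint fit in edgeR. Its effects in the 2 mutant lines differed at an adjusted p under 0.05, as did those of 0.375% of all genes. Unlike the members of the set, Fstl1 was not refitted with other tools, scalings or samples. The log2 change was -0.98 in the KO (adjusted p = 0.140) and 0.40 in the full deletion (adjusted p = 0.0547), and the difference was 1.36 (adjusted p = 0.0463). Both KO samples were below all 3 WT samples and all 3 full-deletion samples above all 3 WT 2 samples. Fstl1 stood at 97.7 ± 34.1 CPM in WT and at 31.9 ± 1.79 CPM in WT 2 (SD, n = 3 each), so the WT level itself differed between the experiments, and allele and experiment cannot be told apart. With groups of 2 or 3 samples, single samples were not tested as outliers.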

How the results depend on the processing

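Numbers of the 10 genes called by the stricter rule (adjusted p under 0.01 and at least 2-fold) were recomputed with other scalings, filters, tools, samples and terms. Against WT in the KO and in the Hmga1 add-back, where none was called, DESeq2 called 1 in each, and leaving out 1 sample gave 0 to 3 and 0 to 4. In the Hmga2 add-back a fit of only the 2 groups called 1, and leaving out 1 sample gave 0 to 4. The highest counts came without WT b. In the full deletion, where 1 (Bmp7) was called, summed counts gave 0, no filter 2, DESeq2 3, and an adjusted p under 0.05 with no minimum fold 4, and leaving out 1 sample gave 0 to 2. At that adjusted p of 0.05, where 4 were called, leaving out 1 sample gave 0 to 6, an alternative chosen after seeing the data. For the difference between the full deletion and the KO, DESeq2 called 1. The sample letter as a replicate block in the full-deletion fit lowered the count from 1 to 0 by the stricter rule and from 4 to 2 at 0.05, and without the replicate block in the KO experiment 0 were called in each comparison. The cause of these moves was not tested. Limma-trend, DESeq2 size factors and a mean count of at least 50 moved none of these counts beyond 1.5 times.

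Over all 80 effects of the 10 genes, 48 changed sign under at least 1 alternative, among them 0 of the 4 with an adjusted p under 0.05. The log2 values of those that turned when 1 sample was left out ranged as follows. In the KO against WT the ranges were -1.56 to 0.38 for Bmp4, -0.91 to 0.45 for Id3, -0.0945 to 0.16 for Smad7, -0.30 to 0.00884 for Nodal, -1.19 to 2.2 for Lefty1 and -0.36 to 1.72 for Lefty2. In the Hmga1 add-back against WT they were -1.54 to 0.39 for Bmp4, -0.0957 to 1.68 for Bmp7, -0.35 to 0.20 for Smad6, -0.25 to 0.0529 for Nodal, -0.51 to 2.89 for Lefty1 and -0.10 to 1.98 for Lefty2. In the Hmga2 add-back against WT they were -1.75 to 0.20 for Bmp4, -0.21 to 0.22 for Smad6, -0.28 to 0.0402 for Nodal, -0.77 to 2.62 for Lefty1 and -0.0111 to 2.06 for Lefty2. Bmp4, Lefty1 and Lefty2 turned in these 3 comparisons without WT a, and Lefty1 in the Hmga2 add-back also without its own a sample. For the Hmga1 add-back against the KO, Bmp4 ranged from -0.34 to 0.35, Bmp7 from -1.34 to 0.43, Id1 from -0.0911 to 0.86, Nodal from -0.0108 to 0.10 and Lefty2 from -0.10 to 0.58. For the Hmga2 add-back against the KO, Bmp4 ranged from -0.63 to 0.25, Bmp7 from -0.68 to 0.63, Id1 from -0.12 to 0.82, Id2 from -0.12 to 0.37, Nodal from -0.0476 to 0.12, Lefty1 from -0.56 to 1.12 and Lefty2 from -0.23 to 0.84. Between the add-backs, Bmp4 ranged from -0.69 to 0.21, Bmp7 from -0.33 to 1.44, Id1 from -0.29 to 0.26, Id3 from -0.62 to 0.39, Smad6 from -0.18 to 0.38, Smad7 from -0.11 to 0.11, Nodal from -0.10 to 0.0726, Lefty1 from -1.32 to 0.53 and Lefty2 from -0.51 to 0.55. In the full deletion, Id1 ranged from -0.34 to 0.0933, Id3 from -0.19 to 0.12, Smad7 from -0.11 to 0.0634 and Nodal from -0.0243 to 0.36. For the difference between the full deletion and the KO, Bmp4 ranged from -1.83 to 0.13, Bmp7 from -0.29 to 1.02, Id3 from -0.52 to 0.85, Smad7 from -0.19 to 0.0780, Lefty1 from -1.17 to 2.21 and Lefty2 from -1.35 to 0.71.

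With summed counts the sign turned in the full deletion for Id1 (0.16), Id3 (0.21) and Smad7 (0.25), in the difference from the KO for Id3 (0.29), Smad7 (0.22) and Lefty2 (0.18), for Smad6 in the Hmga1 add-back (0.0192) and for Smad7 between the add-backs (0.00846). A mean count of at least 50 turned Smad7 between the add-backs (0.00306) and in the full deletion (0.00656) and Id3 in the difference (0.0143). DESeq2 turned Lefty1 in the KO (-0.00844) and Bmp7 in the Hmga2 add-back against the KO (-0.0519), and limma-trend the latter (-0.0364), Id1 in the full deletion (0.00750) and Id3 in the difference (0.14). Without the replicate block Smad6 turned in the Hmga1 add-back against WT (0.16), Bmp7 in it against the KO (0.12) and Smad7 between the add-backs (0.00135), where a fit of only the 2 groups turned Id1 (0.000831). None of these turned values had an adjusted p under 0.05. Summed counts in place of TMM moved the median log2 change of all genes in the full deletion by 0.28 and the share of calls at 0.05 that were higher from 54.3% to 81.9%. Relative to that shift the directions of Bmp4, Bmp7, Smad6 and Lefty1 held. In that edgeR fit Lefty1 no longer passed an adjusted p of 0.05 (0.0563), whereas Lefty2 did (0.0290). With 2 or 3 samples of 1 clone a group, changes of more than 2-fold could miss the threshold, as for Id1 in the KO.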
